A study of Mus musculus with 16 samples.

Results

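Broad H3K27Me3 domains are long stretches of chromatin in which the repressive histone mark H3K27Me3 was enriched in mouse ES cells of both sexes, female (XX) as well as male (XY). They were found by merging the female and the male list of H3K27Me3 regions on chromosomes 1 to 19 wherever regions shared at least 1 bp, and by keeping merged stretches of 20 kb or more that held regions of both lists. Of 20845 merged stretches, 10118 held regions of both lists, and 768 of these were 20 kb or wider (7.59% of the shared stretches). The domains were therefore selected on their width and on their presence in both lists, and the H3K27Me3 values below describe them and test nothing. Genes, sequence, H3K27Ac and H3K4Me1 played no part in the choice.

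The ES cells were derived from blastocysts of reciprocal crosses between C57BL/6 and CAST/EiJ mice, and the labels name lines BCM1 and BCM2 for the male and BCF3 and BCF4 for the female cells. All lines carried the same treatment, which was culture at low passage on inactivated C57BL/6 embryonic fibroblasts from pooled embryos of both sexes, followed by fibroblast depletion before harvest. The 16 samples comprise 2 lines of each sex for each of 3 marks, with 1 IgG and 1 input library per sex, and for each mark and sex 1 list of regions was deposited. A list gives only chromosome, start and end on mm9, so there is no replicate, no read depth, no score and no test between the sexes, and each interval below is an exact binomial 95% interval that covers counting error only.

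H3K27Me3 is written by Polycomb repressive complex 2 and is known for covering the promoters of developmental regulators that ES cells keep silent. In ES cells these promoters are mostly rich in CpG dinucleotides, and many also carry methylation of H3K4, so that repressive and permissive marks lie on the same gene. H3K4Me1 marks enhancers and the flanks of promoters whether or not they are active, and H3K27Ac marks active promoters and enhancers. Acetylation and trimethylation occupy the same lysine, so a single histone tail cannot carry both.

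The sequences of the widest domains are shown first, because the composition of the DNA is a property that the choice of domains did not use. The lines below are windows of 200 bp of the reference (NCBIM37, the same assembly as mm9, plus strand) with each CpG in capitals. The first 5 are the most CpG-rich windows without an annotated exon of the Hoxc, Hoxb, Hoxa, Hoxd and Cdkn1c domains, which are the 5 widest, and the last lies 10 kb outside the left edge of the Hoxa domain.
Hoxc, chr15:102752401-102752600, an intron of Hoxc13: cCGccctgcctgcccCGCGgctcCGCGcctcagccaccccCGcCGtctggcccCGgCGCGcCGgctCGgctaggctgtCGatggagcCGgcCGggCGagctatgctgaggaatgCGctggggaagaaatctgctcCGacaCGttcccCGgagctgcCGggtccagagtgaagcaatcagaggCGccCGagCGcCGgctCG
Hoxb, chr11:96194401-96194600, an intron of Hoxb3: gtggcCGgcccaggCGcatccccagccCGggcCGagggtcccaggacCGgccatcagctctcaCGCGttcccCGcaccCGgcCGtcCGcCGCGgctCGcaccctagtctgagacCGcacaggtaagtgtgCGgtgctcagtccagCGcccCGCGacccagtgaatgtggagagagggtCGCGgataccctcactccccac
Hoxa, chr6:52141801-52142000, an intron of Hoxa3: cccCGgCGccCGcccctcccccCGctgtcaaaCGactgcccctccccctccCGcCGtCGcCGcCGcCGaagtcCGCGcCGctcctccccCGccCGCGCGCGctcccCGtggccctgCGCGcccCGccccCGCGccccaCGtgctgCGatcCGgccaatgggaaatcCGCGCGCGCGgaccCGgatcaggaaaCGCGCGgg
Hoxd, chr2:74506001-74506200, between genes: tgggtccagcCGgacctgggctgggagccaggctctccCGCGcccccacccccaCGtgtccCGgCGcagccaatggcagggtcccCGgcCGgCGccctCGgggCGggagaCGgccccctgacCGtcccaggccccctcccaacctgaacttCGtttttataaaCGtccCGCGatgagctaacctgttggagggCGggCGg
Cdkn1c, chr7:150647001-150647200, between genes: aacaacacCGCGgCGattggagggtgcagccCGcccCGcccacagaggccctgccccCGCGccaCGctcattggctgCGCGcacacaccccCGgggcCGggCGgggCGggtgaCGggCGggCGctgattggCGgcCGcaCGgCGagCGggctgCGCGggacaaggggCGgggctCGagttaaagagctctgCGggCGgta
Outside Hoxa, chr6:52083001-52083200, between genes: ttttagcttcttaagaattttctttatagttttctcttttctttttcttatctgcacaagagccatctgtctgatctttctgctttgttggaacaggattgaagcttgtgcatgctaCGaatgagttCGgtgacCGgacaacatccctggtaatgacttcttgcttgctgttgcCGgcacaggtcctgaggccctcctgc
The 5 inner windows held, in this order, 26, 21, 37, 19 and 28 CpGs, and the window outside held 4. All 5 inner windows lay under H3K27Me3 in both lists. The Hoxc window also lay under H3K27Ac in the female list, the 4 others lay under H3K27Ac in neither list, and the outer window lay under a further H3K27Me3 region of the female list only.

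The Hox domains also hold genes for microRNAs, short RNAs that repress messages matching their seed. The mature forms below are from RefSeq (GRCm38.p6), with the seed (bases 2 to 8) in capitals, and are shown because the same seed recurs in separate domains.
miR-196a-5p (genes Mir196a-1 in the Hoxb and Mir196a-2 in the Hoxc domain): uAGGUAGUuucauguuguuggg
miR-196b-5p (gene Mir196b in the Hoxa domain): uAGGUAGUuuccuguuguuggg
miR-10a-5p (gene Mir10a in the Hoxb domain): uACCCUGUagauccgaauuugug
miR-10b-5p (gene Mir10b in the Hoxd domain): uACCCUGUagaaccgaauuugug
miR-208a-3p (gene Mir208a in the Il25 and Cmtm5 domain): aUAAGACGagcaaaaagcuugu
miR-208b-3p (gene Mir208b in the Myh6 and Myh7 domain): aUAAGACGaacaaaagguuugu
The miR-196 and miR-10 families repress Hox messages, and Mir208a and Mir208b belong to the cardiac myosin genes Myh6 and Myh7. In all, 45 annotated miRNA genes started in a domain, which is 3.07% of the 1468 on the autosomes.

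The domains were 26.999 kb wide in the median (quartiles 22.8 and 33.8 kb), against 6.80 kb for the 9350 narrower shared stretches. Together they covered 24.1 Mb, which is 1.01% of the autosomes and 18.2% of all bases in H3K27Me3 stretches. Of the domains, 309 were 20 to 25 kb wide and 33 were 60 kb or wider. The values are continuous across the minimum, with 14 domains at 20.2 kb just inside and 19 shared stretches at 19.999 kb just outside. Just inside lay the domains of the pancreatic elastase gene Cela3b and the protocadherin gene Pcdh8 and one at chr4:97408201-97428399 without a protein-coding start. Just outside lay stretches at Card10 (chr15:78624001-78643999, 19.4 kb female and 7.999 kb male), at Emid2 (chr5:137353401-137373399, 16.6 and 18.998 kb) and at chr12:100793001-100812999 (19.6 and 9.80 kb). Presence in both lists removed 15 female-only and 2 male-only stretches of 20 kb or more.

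The 4 widest domains were the 4 Hox clusters, whose homeobox genes set position along the body axis. The Hoxc domain (chr15:102733601-102908199, 175 kb) held Hoxc4 to Hoxc13, the Hoxb domain (chr11:96103201-96248399, 145 kb) Hoxb1 to Hoxb9, the Hoxa domain (chr6:52093001-52235399, 142 kb) all of Hoxa, and the Hoxd domain (chr2:74477601-74604799, 127 kb) all of Hoxd with the homeobox gene Evx2. Hoxb13 lay in a domain of its own of 49.999 kb, and Evx1, the homeobox gene beside Hoxa, in a domain of 47.6 kb that began 601 bp past the Hoxa domain. All 39 Hox genes started in a domain. H3K27Me3 covered 174 kb of the Hoxc domain in the female and 171 kb in the male list, 139 and 144 kb at Hoxb, 142 and 141 kb at Hoxa, and 125 and 124 kb at Hoxd, so both lists marked each cluster almost from end to end.

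**Figure D1:**
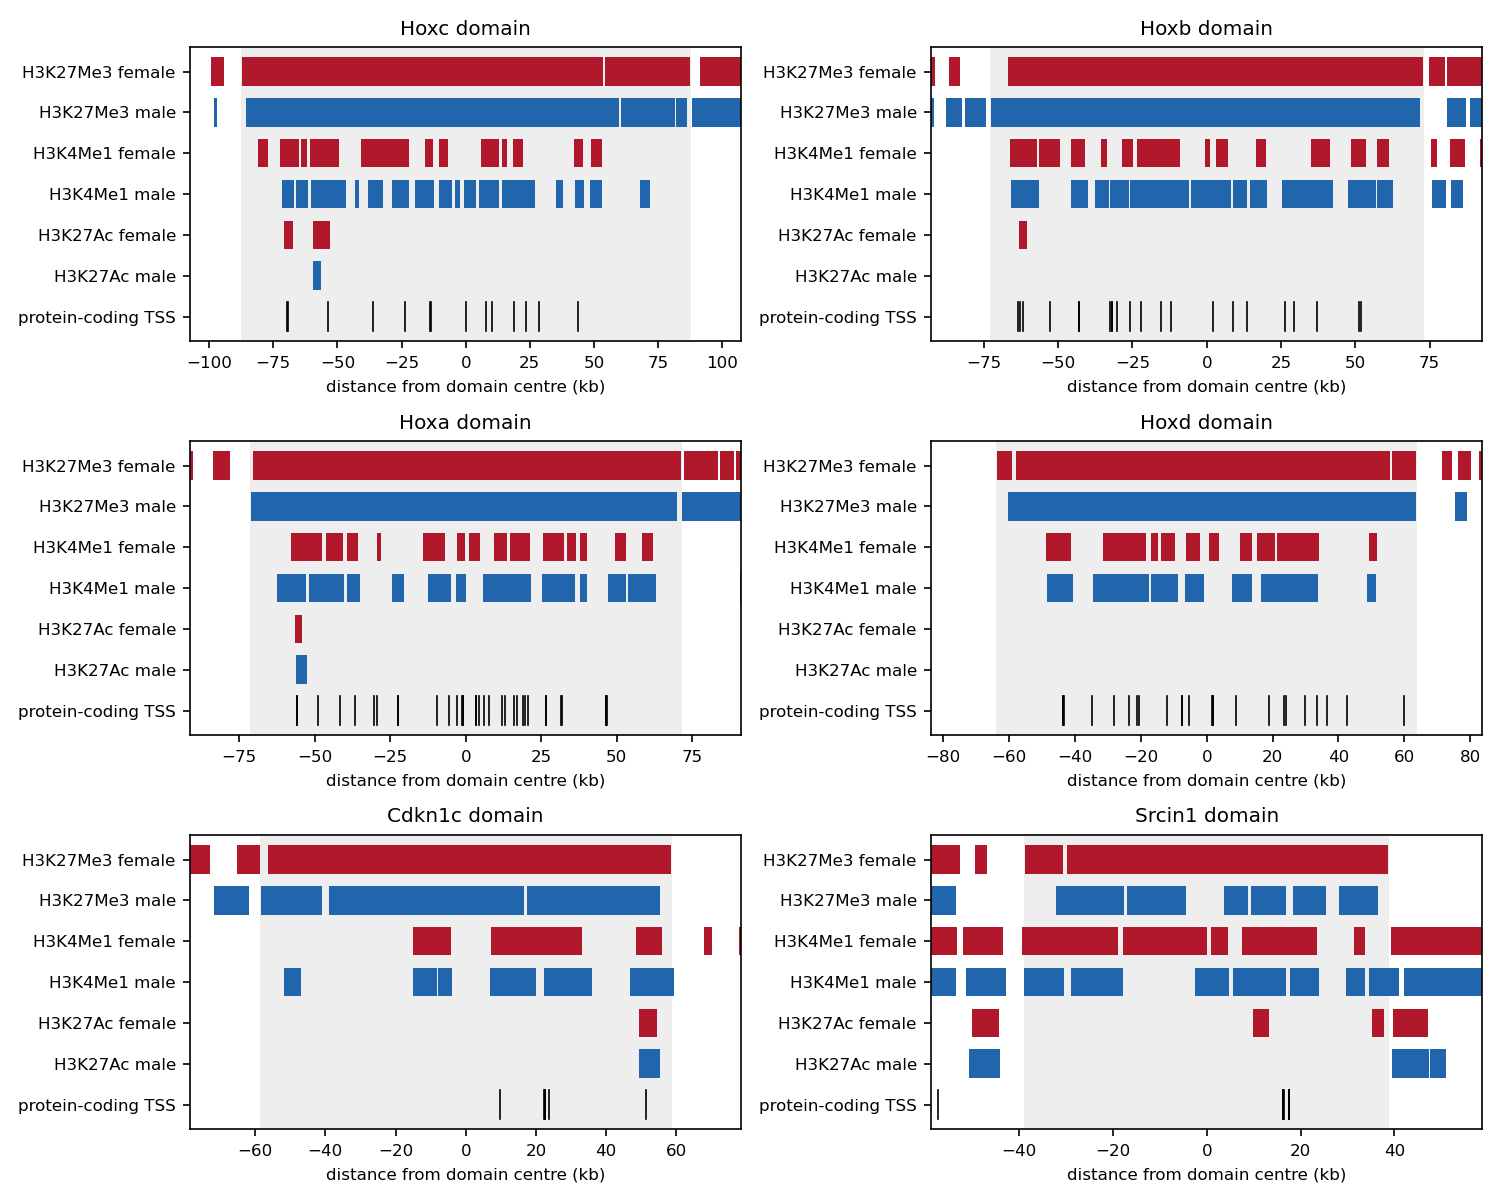
Maps of the 4 Hox domains, the Cdkn1c domain and the Srcin1 domain, with distance from the domain's centre (kb) on the x axis and 1 row per mark and list, female red and male blue, above the protein-coding start sites (black ticks). The grey span is the domain, and bars are deposited regions. At the 4 Hox clusters H3K27Me3 is nearly unbroken in both lists and H3K27Ac is sparse or missing, whereas at Srcin1 the male H3K27Me3 list is cut into 6 regions and the female into 2.

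Within the Hox clusters H3K4Me1 was common and H3K27Ac rare. H3K4Me1 covered 39.97% of the Hoxc domain in the female list and 52.1% in the male, 45.6% and 70.0% of Hoxb, 45.9% and 59.5% of Hoxa, and 46.1% and 50.9% of Hoxd. H3K27Ac covered 5.84% and 1.95% of Hoxc, 1.65% and none of Hoxb, 1.44% and 2.53% of Hoxa, and no base of Hoxd in either list. The male list thus held more H3K4Me1 in each of the 5 domains with Hox genes, against 50.8% of all 768 domains. The few H3K27Ac regions differed between the lists. Hoxc12 and Hoxc13 had H3K27Ac within 2 kb of a start in the female list only.

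Other domains among the 15 widest were of mixed content. The Cdkn1c domain (chr7:150578801-150695599, 117 kb) also held Slc22a18 and Phlda2, and all 3 are imprinted genes expressed from the maternal copy, with Cdkn1c encoding an inhibitor of the cell cycle. Lmx1b, which patterns the dorsal limb, lay in a domain of 106 kb, and Uncx, a homeobox gene of the somites, in 101.8 kb. Srcin1, a regulator of Src kinase, held 77.4 kb, as did the domain of Otop2, Otop3, Ush1g, Cdr2l and C630004H02Rik. Pak6, Plcb2 and Gm1337 shared 76.2 kb, and the immunoglobulin superfamily genes Igdcc3 and Igdcc4 shared 74.0 kb. A domain of 77.999 kb without a protein-coding start (chr15:102909201-102987199) began 1001 bp past Hoxc.

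A domain of 101 kb on chromosome 8 (chr8:126056801-126157599) was the widest without a protein-coding start. It held 51 annotated genes of other kinds, of which 41 were named in the n-R5s series of 5S ribosomal RNA genes. It had the highest CpG density of the 768 domains, 4.84 per 100 bp, and H3K4Me1 covered 91.5% in the female list and no base in the male list. The 5S genes are known as near-identical copies, among which reads can be hard to place, and since mappability was not measured here this difference is uncertain. The same limit applies to the domain with the most protein-coding gene models after Hoxa (13), 12 models around Gm13290 and the interferon gene Ifnz (chr4:88417001-88455199, 38.2 kb), where H3K4Me1 covered 50.8% in the female and none in the male list.

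Many domains lay near others. Of the 768, 281 lay within 100 kb of another, in 118 runs, of which 33 held 3 or more. The imprinted run on chromosome 7 had 5 domains over 423 kb, from Trpm5 and the start of the potassium channel gene Kcnq1 to Phlda2. Another run of 5 surrounded Nkx1-1 and Fgfr3, and 5 more stood around Des and Speg, genes of muscle. Chromosome 11 held the most domains for its length, 6.40 per 10 Mb, and chromosome 16 the fewest, 1.02. Per 100 protein-coding genes the values ranged from 1.48 on chromosome 16 to 5.76 on chromosome 4.

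The female list covered more of the domains than the male list did. Of the domain bases, 94.1% lay in the female list, 86.4% in the male list and 80.5% in both, against 86.1%, 78.6% and 64.7% of the narrower shared stretches. The female list had more bases in 506 domains (65.9%, where the share over all shared stretches was 56.8%), the male list in 251 (background 39.1%), and the lists were equal in 11. The female list spanned 206 domains whole and the male list 73. Only 4 domains were under 50% covered in the female list and 30 in the male list. The female H3K27Me3 list is the longer one on the autosomes, with 18270 regions against 14977, and since neither read depth nor the calling threshold is known, a longer list and a difference between the sexes cannot be told apart.

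**Figure D2:**
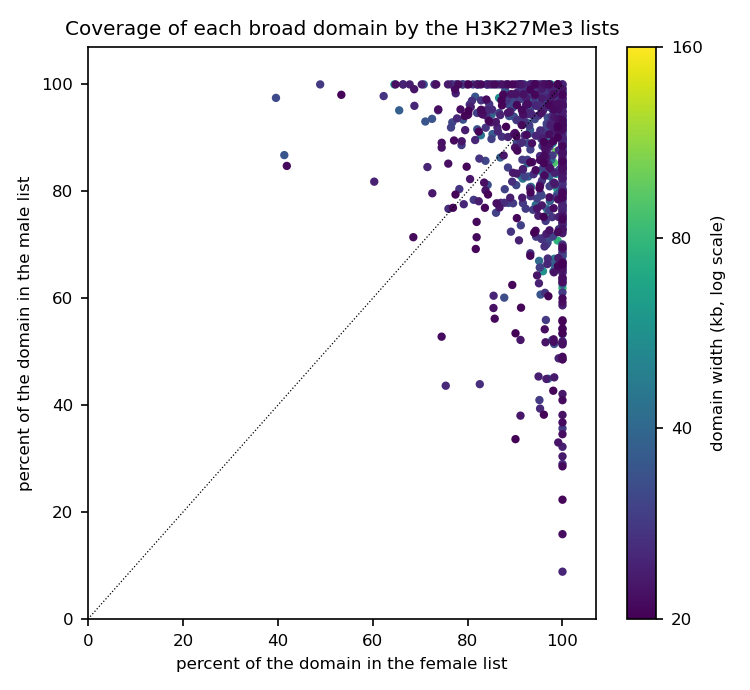
Percent of each of the 768 domains covered by H3K27Me3 in the female list (x axis) and in the male list (y axis), 1 point per domain, coloured by width (kb, log scale), with the dotted line at equal coverage. Most points lie close to 100% on at least 1 axis, and more lie below the line (506) than above it (251).

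The male list was also more broken. Both lists held 1 region in 262 domains, the female list held 1 and the male list several in 237, the reverse was so in 104, and both were split in 165, with 1102 female and 1358 male regions in all. Regions of 20 kb or more stood in both lists in 303 domains, in the female list alone in 229, in the male list alone in 77, and in neither in 159, where only the merging of lists made the stretch wide. The most broken domains were those of Nfic and at chr4:124930001-125000799, each with 7 male regions, and those of Rgma and Cela3b and at chr2:151845601-151890199, each with 5 female regions.

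The largest excess of female H3K27Me3 lay inside Kcnq1 (chr7:150484601-150564399), where the female list covered 79.8 kb in 1 region and the male list 49.4 kb in 5. The other 4 of the 5 largest were the domain at chr11:118977801-119002599, with 24.8 kb female and 2.20 kb male, between the domain of the Polycomb gene Cbx8 and that of Tbc1d16, and those of Srcin1 (76.6 and 54.8 kb), Gse1 (38.4 and 17.8 kb) and the transcription factor gene Nfic (61.0 and 41.4 kb). The largest male excess lay at chr17:27343001-27400599, over no protein-coding gene, with 37.2 kb female and 57.6 kb male. Slc9a9, an endosomal sodium and proton exchanger, followed with 12.6 and 31.0 kb. The 3 others were at chr4:146790201-146824999 (14.4 and 30.2 kb), over the potassium channel gene Kcnk3 (13.8 and 28.2 kb) and over Ptprn2 and Mir153 (24.4 and 35.4 kb).

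The edges of the domains differed between the lists by 1.4 kb in the median, against 0.8 kb at narrower shared stretches, on a grid of 200 bp. Of the 1536 edges, the female list reached further at 880 (57.3%, 54.8 to 59.8%) and the male list at 554 (36.1%), and 102 coincided. At narrower stretches the female list reached further at 50.6%. The lists ended within 1 kb of each other at 43.8% of domain edges and 59.8% of the others. Differences over 10 kb numbered 29, of which 26 were female. Taken by domain, the female list reached at least as far at both edges and further at 1 or both in 310 domains (40.4%, background 36.2%) and the male list in 134 (17.4%, background 22.7%), while 319 were mixed and 5 equal. With the female list reduced to the length of the male list by width, the first share was 39.7%. That step kept the widest female regions and left 766 domains, so it does not show what an equal read depth or threshold would give.

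**Figure D3:**
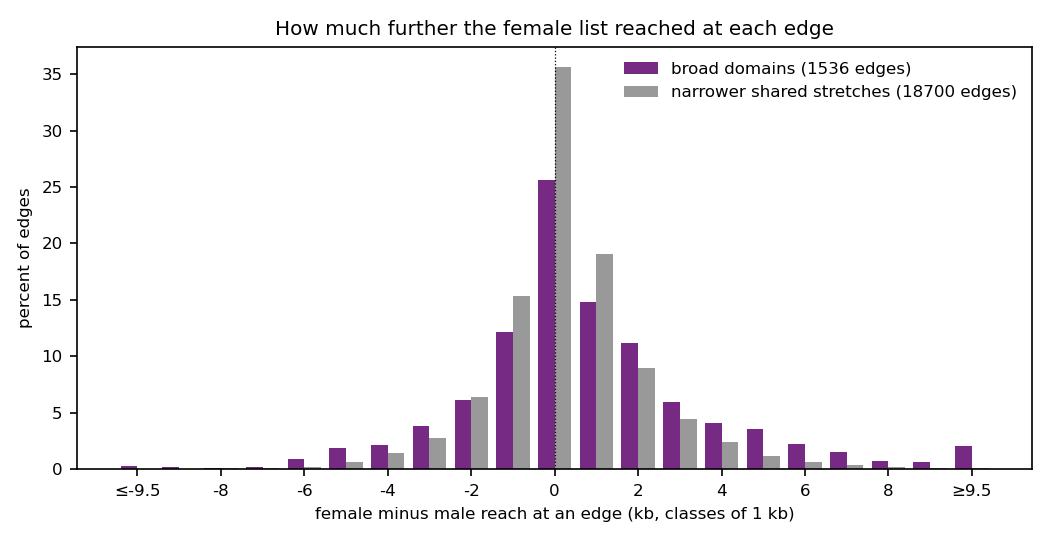
Percent of edges (y axis) by how many kb further the female list reached than the male list (x axis, classes of 1 kb, negative where the male list reached further), for 1536 edges of broad domains (purple) and 18700 edges of narrower shared stretches (grey). The domain edges spread wider and lean to the female side, and their class around 0 holds 25.6% against 35.6% for the narrower stretches.

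Most domains held gene starts. A protein-coding transcription start site (TSS) lay inside 629 of the 768 domains (81.9%, 79.0 to 84.6%), against 28.2% of all stretches and 42.6% of the narrower shared ones. One gene started in 420 domains, 2 in 144 and 3 or more in 65. Per length the order turned, with 4.06 genes per 100 kb in domains and 6.16 in narrower shared stretches. The 968 genes concerned are 4.52% of the 21418 autosomal protein-coding genes, and 578 of them lay wholly inside. Their innermost start, the one furthest from an edge where a gene has several, was 9.67 kb from the nearer edge in the median. No distance for random positions was measured beside it. Of the 139 domains without such a start, 57 lay over the body of a protein-coding gene and 82 over none, and 42 held the start of another kind of gene.

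Besides the domains already named, the widest without a protein-coding start stood at chr7:86633601-86707199 (73.6 kb), chr4:124930001-125000799 (70.8 kb), chr3:87982801-88053199 (70.4 kb, over the ammonium transporter gene Rhbg), chr19:44707601-44768799 (61.2 kb), chr17:27343001-27400599 (57.6 kb), chr5:33880601-33936199 (55.6 kb) and chr17:27427001-27473799 (46.8 kb). In the last of these H3K4Me1 covered 79.1% in the female against 23.1% in the male list. The one on chromosome 19 began a run that included Pax2, and that on chromosome 5 stood in the run of Nkx1-1. Long noncoding RNA genes were present, with 103 of 1232 lincRNAs (8.36%) starting in a domain. The shares were 4.52% for protein-coding genes, 4.47% for processed transcripts, 1.38% for pseudogenes and 17.3% for rRNA genes.

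Genes for regulators of development were common in the domains. Of 311 autosomal transcription factor genes in 7 lists, 188 started in a domain (60.5%, 54.8 to 65.9%), against 4.52% of all protein-coding genes, and 282 (90.7%) started in some H3K27Me3 stretch, against 29% of all genes. They stood in 148 domains, which is 19.3% of all domains and 35% of the 20 widest. The share varied between families. Outside the Hox clusters 90 of 127 homeobox and Pax genes started in a domain (70.9%), as did 15 of 26 zinc finger genes of the Gata, Zic, Gli and related families (57.7%), 9 of 16 T-box genes (56.2%), 15 of 39 forkhead genes (38.5%) and 17 of 47 lineage bHLH genes (36.2%). Of 17 Sox genes only Sox8, Sox14 and Sox21 did (17.6%, 3.80 to 43.4%), although 14 started in a stretch of some width.

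**Figure D4:**
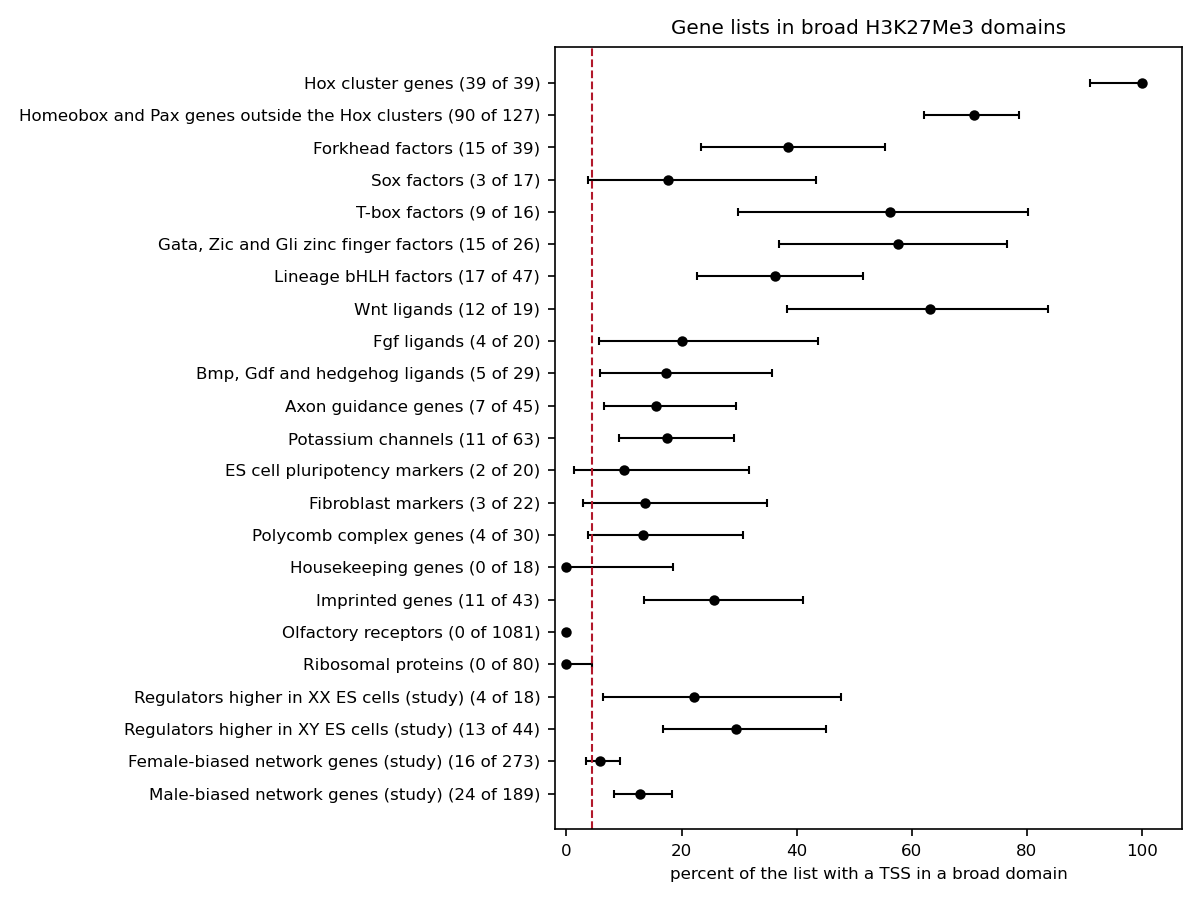
Percent of the autosomal protein-coding genes of each list with a start in a broad domain (x axis, points with exact binomial 95% intervals, counting error only), with the number of genes beside each list, and the dashed line at 4.52%, the share of all protein-coding genes. The Hox list stands at 100%, and the housekeeping, ribosomal protein and olfactory receptor lists stand at 0.

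The 90 homeobox and Pax genes stood in 87 domains of 20.2 to 127 kb, with a median of 30.4 kb. Among the first in the order of the list were Pax1, Pax2, Pax3, Pax4, Pax5, Pax6, Pax7 and Pax9, which pattern the neural tube, somites and organs, then Nkx1-1, Nkx1-2, Nkx2-1, Nkx2-2, Nkx2-3, Nkx2-5, Nkx3-2, Nkx6-1 and Nkx6-3, then Six2, Six3 and Six6 of eye, ear and muscle, and the LIM genes Lhx1, Lhx2, Lhx4, Lhx5, Lhx6, Lhx9, Lmx1b and Isl1 of neurons and limbs. H3K27Me3 covered 94.4% of these 87 domains in the female list and 93.8% in the male, with more bases in the female list in 40 and in the male list in 44. H3K27Ac was in neither list in 60 of them, against 339 of all 768 domains (44.1%). H3K4Me1 covered 44.1% and 49.7% of these 87 domains, and the male list had more in 65 and the female list in 21. Over all 768 domains the male list had more H3K4Me1 in 390 (50.8%) and the female list in 347 (45.2%).

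The smaller families gave mixed values for H3K27Me3. The forkhead genes included Foxa1, Foxa2, Foxb1, Foxc1, Foxc2, Foxd1, Foxd2, Foxe1, Foxe3, Foxf1a, Foxf2, Foxi3, Foxl2 and Foxs1, and their 14 domains were covered to 93.4% in the female against 93.6% in the male list. The zinc finger genes were Gata2, Gata3, Gata4, Gata6, Zic1, Zic2, Zic4, Fezf1, Fezf2, Sp5, Sp8, Sp9, Wt1, Osr2 and Sall3, with 92.3% and 93.9%. The bHLH genes, which specify neurons, muscle and blood, were Neurog1, Neurog2, Neurod2, Ascl2, Atoh8, Olig2, Bhlhe23, Tcf15, Twist1, Hand1, Hand2, Tal1, Lyl1, Ptf1a, Heyl, Hes2 and Hes3, with 92.3% and 92.4%. In these 3 families the male list had more H3K4Me1 in 10 of 14, 10 of 14 and 11 of 17 domains, against 50.8% of all domains. The 3 Sox domains stood at 84.8% of bases under H3K27Me3 in the female list and 90.7% in the male, with the male list higher in 2 of them.

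The T-box genes were T, Eomes, Tbx1, Tbx2, Tbx3, Tbx4, Tbx15, Tbx18 and Tbx21, which act in mesoderm, limb and heart, with 96.7% of their domains covered in the female list and 94.2% in the male. Their domains carried more H3K27Ac than those of the other factor families, 11.2% of bases in the female against 9.82% in the male list. Much of it lay at Tbx3, which ES cells express, where H3K27Ac covered 38.7% and 31.5% of a domain of 58.4 kb.

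Genes that direct the early heart were among the factors. Gata4 lay in a domain of 48.8 kb (chr14:63852201-63900999), which the female list covered whole and the male list for 38.6 kb. Nkx2-5 lay in 30.2 kb (chr17:26970601-27000799), with 30.2 kb female and 26.2 kb male. Hand2 lay in 51.0 kb, with 47.2 kb female and 49.999 kb male, and Hand1 in 26.4 kb, with 26.4 and 22.8 kb. H3K27Ac was in neither list in these 4 domains, whereas H3K4Me1 covered 32.0% and 44.3% at Gata4 (female and male), 43.0% and 43.0% at Nkx2-5, 17.3% and 18.8% at Hand2 and 61.4% and 59.8% at Hand1. The cardiac myosin genes Myh6 and Myh7 shared a domain of 33.2 kb with no H3K27Ac and no H3K4Me1 in either list.

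Of the signalling lists the Wnt ligands had the largest share in domains. Of 19 Wnt ligands 12 started in a domain (63.2%, 38.4 to 83.7%), and Wnt6 and Wnt10a shared 56.6 kb while Wnt1 and Wnt10b shared 47.6 kb. The Fgf ligands gave 4 of 20, among them Fgf8, the Bmp, Gdf and hedgehog ligands 5 of 29, among them Shh and Bmp7, the axon guidance genes 7 of 45 and the potassium channels 11 of 63, which is 15.6 to 20% of each list. The H3K27Me3 values of these domains are read beside those of all domains, where the female list covered 94.1%, the male list 86.4%, and the female list had more bases in 65.9%. H3K27Me3 covered 98.5% of the 9 Wnt domains in the female list and 90.7% in the male, 95.7% and 79.4% of the 4 Fgf domains, 95.3% and 85.2% of the 7 axon guidance domains, and 96.3% and 83.6% of the 10 potassium channel domains. The female list had more bases in 7 of 9, 3 of 4, 6 of 7 and 8 of 10 of them. The axon guidance and potassium channel coverages were thus near those of all domains. The Bmp, Gdf and hedgehog domains stood at 92.8% and 90.2%, with 2 of 5 higher in the female list. The axon guidance genes were Unc5a, Unc5b, Robo3, Epha8, Epha10, Efna2 and Sema3f, receptors and ligands that steer growing axons, and the channels included Kcng1, Kcng2, Kcnh3, Kcnh4, Kcnj4, Kcnj9, Kcnj10, Kcnn3 and Kcnq1.

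Imprinted genes gave 11 of 43 (25.6%, 13.5 to 41.2%). These were Igf2, Kcnq1, Cdkn1c, Phlda2, Slc22a18, Ascl2, Dlk1, Dio3, Grb10, Peg10 and Sgce, and 6 of them lie on distal chromosome 7.

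The housekeeping, ribosomal protein, olfactory receptor, pluripotency, Polycomb and fibroblast lists had from none to 13.6% of their genes in domains, against 4.52% of all protein-coding genes. No gene of 18 housekeeping genes, 80 ribosomal protein genes or 1081 olfactory receptor genes started in one, which allows up to 18.5%, 4.51% and 0.341% by the upper bound of the interval. Of 20 pluripotency markers Esrrb and Tbx3 did (10%, 1.23 to 31.7%), and of 30 Polycomb genes 4 did (13.3%), among them Bmi1, Pcgf1 and Cbx8. Esrrb and Tbx3 had H3K27Ac within 2 kb of a start in both lists, although the Esrrb domain itself, of 24.2 kb, held none. The cell type was checked on H3K27Ac within 2 kb of a start, which 14 of 14 ES cell markers had in both lists. Of 22 fibroblast genes 3 had it in the female list, namely Col5a1, Lum and Vim, and 7 in the male list, namely the same 3 with Col1a1, Col5a2, S100a4 and Twist1. Of 10 defining markers among them the numbers were 1 and 2, and the other 8 had it in neither list. Col1a1, Pdgfrb and Twist1, 3 of the 22 (13.6%, 2.91 to 34.9%), started in domains. In the Col1a1 domain H3K27Ac covered no base in the female against 13.0% in the male list, and the part of remaining fibroblasts in this was not tested.

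The study's own lists of sex-biased genes were less alike. Of its regulators higher in XX ES cells 4 of 18 autosomal genes started in a domain (22.2%, 6.41 to 47.6%), and of those higher in XY ES cells 13 of 44 (29.5%, 16.8 to 45.2%). Among its network genes the shares were 16 of 273 female-biased (5.86%, 3.39 to 9.34%) and 24 of 189 male-biased (12.7%, 8.31 to 18.3%), so the first interval includes the 4.52% of all genes and the second lies above it. The study chose these lists by expression in ES cells of the same crosses, so they are not independent of the sexes compared here.

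The XX regulators were Hoxb9, Hoxc8, Tbx15 and Meis2. The Meis2 domain (chr2:115880801-115904799, 24.0 kb) was covered for 18.6 kb in the female and 23.6 kb in the male list, with H3K27Ac over 33.3% and 27.5%. The Tbx15 domain had 32.6 kb of H3K27Me3 in each list. Among the XY regulators, H3K27Me3 covered 48.8 kb in the female and 38.6 kb in the male list at Gata4, 36.6 and 29.4 kb at Sp5, 23.4 and 19.8 kb at T, the mesoderm factor Brachyury, and 33.4 and 29.8 kb at Nfkb2. The order turned at Sp8 (20.6 and 25.8 kb), Foxi3 (23.8 and 28.8 kb) and Egr4 (22.8 and 24.998 kb), and the remaining ones were Cdx1, Eomes, Evx1, Ybx2, Prdm6 and Dnmt3b. The female list had more bases at 8 of the 13 XY regulators and the male list at 5. Over all domains the female list had more in 65.9%, so the XY regulators were near the domains as a whole.

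H3K27Ac was found inside about as many domains as not. It lay in 374 domains in the female list (48.7%, 45.1 to 52.3%, where all stretches gave 25.1%) and in 366 in the male list (47.7%, 44.1 to 51.3%, background 23.7%), in 311 of these in both. It was in the female list only in 63 domains (8.20%, background 5.14%), in the male list only in 55 (7.16%, background 3.75%) and in neither in 339. By length the order turned, since H3K27Ac covered 7.81% of domain bases in the female list and 8.51% in the male, against 10.5% and 10.6% of the narrower shared stretches. A wider stretch has more room to hold a region, so the share of bases is the fairer comparison.

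Most H3K27Ac inside the domains lay on DNA that was also under H3K27Me3. Of the H3K27Ac bases inside domains, 91.6% in the female list and 84.1% in the male list also lay under H3K27Me3 of that list, which is close to the 94.1% and 86.4% of all domain bases. Such overlap in lists made from many cells does not say that both marks were on 1 nucleosome or in 1 cell. About as many H3K27Ac pieces lay near protein-coding starts as away from them, 276 of 552 female pieces (50%) and 279 of 516 male pieces (54.1%) within 2 kb, and 95.5% and 94.96% overlapped H3K4Me1 of the same list. Of the female pieces 155 (28.1%) and of the male pieces 122 (23.6%) had no counterpart in the other list. Under the female-only pieces H3K27Me3 covered 93.7% in the female against 84.0% in the male list, and under the male-only pieces 98.3% and 80.6%. Male-only acetylation thus lay on DNA with a larger female and a smaller male share of H3K27Me3 than the domains as a whole. The female-only pieces were slightly below the domains as a whole in both lists. In narrower shared stretches the male-only pieces stood at 92.6% and 83.1%, both above the 86.1% and 78.6% of those stretches, so the smaller male share was not seen there.

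A few domains were mostly acetylated, 16 with over 50% of their bases under H3K27Ac in the female list and 26 in the male list. The 5 highest by bases in both lists included that of Dnmt3b, a DNA methyltransferase, and Commd7 (chr2:153456601-153478999, 22.4 kb), with 69.6% female and 87.5% male, and that of Tnrc18 (22.6 kb), with 77.9% and 100%. The others held no protein-coding start and lay at chr3:96136001-96156199 (87.1% and 96.0%), chr4:146790201-146824999 (83.9% and 85.1%) and chr17:27343001-27400599 (75.3% and 63.2%). The Dnmt3b domain was nonetheless under H3K27Me3 for 21.2 kb in the female and 22.4 kb in the male list.

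H3K4Me1 lay in nearly all domains. It was found in 746 in the female list (97.1%, 95.7 to 98.2%, background 55.1%) and in 732 in the male list (95.3%, 93.6 to 96.7%, background 51.4%), in the female list only in 24 (3.12%, background 8.94%) and in the male list only in 10 (1.30%, background 5.22%). It covered 48.2% and 48.4% of domain bases, against 41.9% and 41.5% of the narrower shared stretches, so that here the share of bases was higher in the domains as well. Most H3K4Me1 regions that met a domain lay wholly inside it, 74.2% in the female list and 72.8% in the male. Only 10 domains held neither H3K4Me1 nor H3K27Ac in any list, the Myh6 and Myh7 domain among them.

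The lists compared in another way in domains with a listed transcription factor than in the rest. In these 148 domains, with a median width of 30.4 kb against 26.2 kb for the others, H3K27Me3 covered 94.2% in the female against 94.1% in the male list, and in the other 620 it covered 94.1% and 84.1%. The female list had more H3K27Me3 bases in 67 of the 148 (45.3%) and 439 of the 620 (70.8%, background 56.8%). H3K4Me1 covered 45.1% in the female list and 51.4% in the male in the first set, where the male list had more in 108 and the female list in 38, and 49.2% and 47.5% in the second, with 282 and 309 domains (over all shared stretches the male list had more in 32.9% and the female list in 30.8%). H3K27Ac covered 4.17% and 3.44% with a listed factor and 8.89% and 10.0% without. The excess of female H3K27Me3 was thus seen in domains without a listed factor. The same contrast stood in 94 narrower shared stretches with such a factor, at 90.07% female and 90.02% male against 86.0% and 78.4% in the other 9256. Those 94 were wider, 14.1 kb in the median against 6.80 kb, and a part of width in the contrast was not tested. The split by list was made after the values were seen, and no test of the difference was possible.

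At the starts themselves the genes in domains had little H3K27Ac and much H3K4Me1. Within 2 kb of any of their starts, 28.7% of the 968 genes had H3K27Ac in the female list (25.9 to 31.7%) and 29.2% in the male list (26.4 to 32.2%), against 51.4% and 51.4% of all genes. H3K4Me1 stood there for 88.8% and 87.0%, against 62.2% and 61.4%, and in 1 list only for 63 genes in the female list (6.51%, background 4.95%) and 45 in the male list (4.65%, background 4.12%). For genes in narrower shared stretches these single-list shares were 8.37% and 6.63%. The listed factors had less H3K27Ac still, 21 of 188 in the female list (11.2%) and 18 in the male list (9.57%), against 33.1% and 34.1% of the other 777 gene models, while H3K4Me1 stood at 168 (89.4%) and 179 (95.2%) of them. The 12 factors with H3K27Ac in both lists included Meis2, Olig2, Pax6, Sall3, Sox21, Tbx15, Tbx3 and Zic2.

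H3K27Ac near a start in a single list was found for 59 genes in the female list (6.10%, where all genes gave 2.82%) and 64 in the male list (6.61%, background 2.82%). Genes starting in narrower shared stretches had nearly the same shares, 5.63% and 6.26%, so single-list H3K27Ac was not particular to the domains. Of the listed factors, Ascl2, Eomes, Foxd1, Gata3, Hes3, Hoxc12, Hoxc13, Nkx2-2 and Pou4f2 had it in the female list only, and Atoh8, Foxa2, Gbx2, Irx2, Prrx2 and Twist1 in the male list only. The Nkx2-2 domain had 13.6% of its bases under H3K27Ac in the female list and none in the male list. The Foxa2 domain (chr2:147849201-147881399, 32.2 kb), which holds a regulator of endoderm, had 6.21% and 44.7%. The Pax6 domain, with H3K27Ac near a start in both lists, had 36.5% in the female against 9.14% in the male list. In these 3 domains H3K27Me3 covered 25.6, 29.999 and 34.8 kb in the female and 32.4, 32.2 and 39.4 kb in the male list.

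Across the edges the marks shifted in opposite directions. H3K27Ac lay over 12.9% of positions in the 2 kb outside an edge in each list, over 10.1% and 10.7% in the first 2 kb inside (female and male), and over 7.71% and 8.37% from 2 to 5 kb inside. H3K4Me1 lay over 32.3% and 29.4% just outside and over 52.4% and 51.9% at 5 to 10 kb inside. CpG density stood at 1.25 per 100 bp just outside and 2.01 at 5 to 10 kb inside. Acetylation thus fell off within 5 kb inside the edge, while H3K4Me1 was higher still at 5 to 10 kb inside. From 6 kb inward CpG density stayed between 1.93 and 2.16 per 100 bp.

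**Figure D5:**
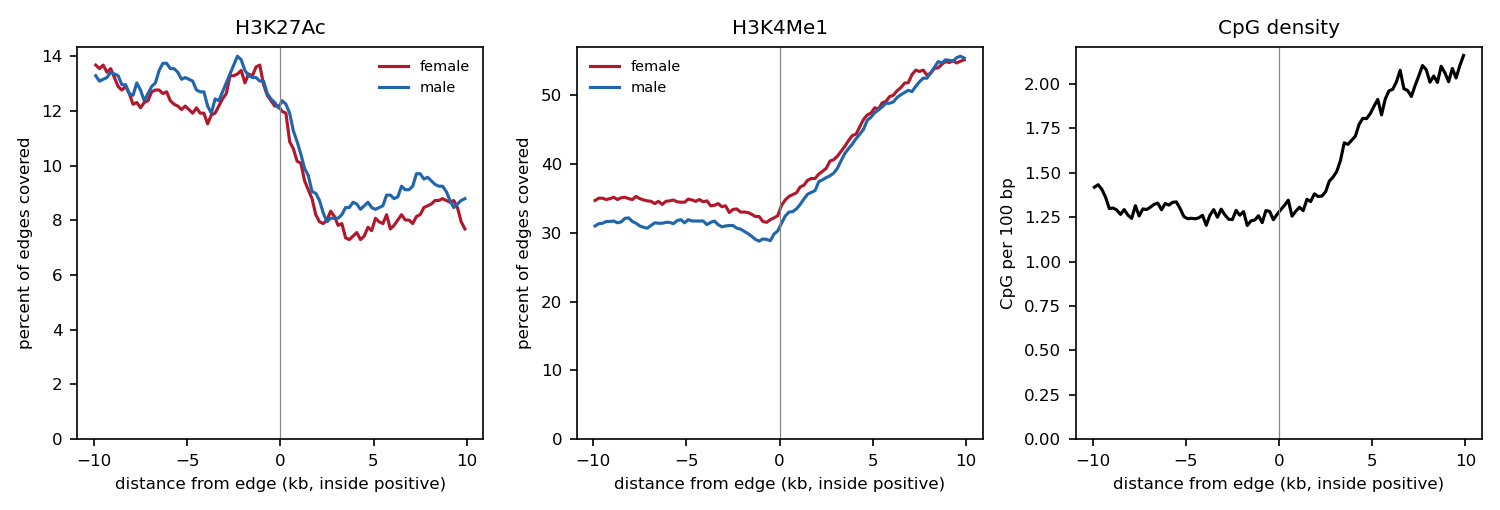
Percent of the 1536 domain edges covered by H3K27Ac (left) and H3K4Me1 (middle) in the female (red) and male (blue) lists, and CpG per 100 bp (right), by distance from the edge in kb with the inside positive. H3K27Ac drops from about 12.9% just outside to 7.71% and 8.37% at 2 to 5 kb inside, while H3K4Me1 passes 50% and CpG density reaches 2.01 per 100 bp.

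The sequence of the domains was richer in GC and CpG than that of other stretches. The median domain had 50.2% GC and 1.86 CpG per 100 bp, the median narrower shared stretch 47.5% and 1.53, and the autosomes 41.9% and 0.851. Windows of 200 bp with at least 50% GC and a ratio of observed to expected CpG of at least 0.6, here called island-like, made up 7.33% of the domains, 5.78% of narrower shared stretches and 0.981% of the autosomes. The domains thus held 7.52% of all autosomal island-like windows on 1.01% of the bases. Only 25 of the 768 domains had none, against 3905 of the 9350 narrower stretches. The Kcnq1 domain with the large female excess was poor in both, at 0.900 CpG per 100 bp and with H3K4Me1 over 2.25% in the female list and none in the male list. Domains with a listed factor had 2.09 CpG per 100 bp and the others 1.79 in the median.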

How the data were processed

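The authors aligned ChIP-seq reads to mm9 with Bowtie2 v2.1.0 at default settings and used Bedtools to measure enrichment. Bowtie and deepTools are named as well in the submitters' processing notes. The deposited files are 6 lists of coordinates, 1 per sex and mark, with no score, count or signal, and none is for IgG or input. The caller, its threshold and the treatment of the separate lines are not given in the sources used, so read depth is unknown.

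Regions were merged where they shared at least 1 bp (20845 of 20845 stretches equal to Bedtools 2.31.1) with Python 3.11.15, pandas 2.3.3 and SciPy 1.17.1, and the procedure was checked on simulated lists. Coordinates are 1-based and widths are end minus start as deposited. Genes are from GENCODE M1 on NCBIM37 (21418 autosomal protein-coding genes, any transcript start). A mark was inside a domain from 1 bp of overlap. No test was made, since each sex and mark has 1 list, and exact binomial intervals treat domains or genes as independent, which neighbours are not. The reference has no masked bases, so the repeat share was not measured. The domains named are the widest, those with most gene starts, without a start, with the largest female or male excess, most acetylated, most divided and nearest the width minimum, and the genes named are members of 23 lists, up to 30 per list in list order, the study's regulators and, chosen after their values were seen, Myh6, Myh7, Mir153 and genes of runs. The domains and gene lists were chosen with earlier results of these data known. Some genes that these rules name are not reported here.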

Additional observations from a re-analysis of the deposited data

How the results depend on the processing

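No paired analysis was possible because each sex and mark has 1 list that does not separate the lines, and for the same reason no line could be left out in turn. A width minimum of 15 kb gave 1403 domains with a median of 21.0 kb, of which 78.5% held a protein-coding TSS, 42.6% and 42.1% H3K27Ac and 92.5% and 90.5% H3K4Me1 (female and male list), and 73.6% of the listed transcription factors started in one. A minimum of 30 kb gave 272 domains with a median of 37.7 kb, 87.9% with a TSS, 84.9% of bases in both H3K27Me3 lists and 37.9% of the listed factors. Merging regions up to 1 kb apart gave 75.5% of bases in both lists and a median of 1.81 CpG per 100 bp. With starts of any annotated gene, 87.4% of domains held one. Counting only mark regions wholly inside, H3K27Ac stood in 38.0% and 34.6% and H3K4Me1 in 88.8% and 83.5% of domains. The other 54 values for the domains as a whole stayed within the interval of the value reported, or within 1.5 times for the number of domains. These included those with each list covering at least 50% of a domain, with the longer list reduced, and with regions that touch on the 200 bp grid merged too, which gave 787 domains and was chosen after seeing the data, as were all alternatives for CpG density. The shares of single gene lists moved outside their interval in 17 of 184 values, all with another width minimum.
Read depth behind the lists is unknown, so a region missing from a list does not show that the mark was absent.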
